A study of Drosophila melanogaster with 3 samples.

Results

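The vacuolar ATPase (V-ATPase) genes of Drosophila melanogaster were taken as every protein-coding gene whose symbol begins with Vha, including the VhaAC genes, in the Ensembl annotation of the dm6 assembly. This rule found 33 genes among the 13945 protein-coding genes on the 6 main chromosome arms, and used no measured value. The genes were scored in a map of CG3919, made by chromatin immunoprecipitation and sequencing from whole prepupae with the sexes pooled. The animals came from a stable transgenic line that produces CG3919 fused at its C terminus to eGFP, and an antibody against GFP recovered the fusion protein, so that the map is of the tagged protein and not of the endogenous one. There was 1 group of 3 biological replicates, which share 1 control, and no untagged or mutant group to set it against. For each replicate the authors deposited 30000 candidate regions, for the pooled replicates another 30000, and from these 9569 reproducible peaks. The number of reads behind them is unknown from these lists. Since chromatin came from the entire animal, binding in fewer nuclei and weaker binding in each nucleus cannot be told apart.

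The V-ATPase is a rotary proton pump of endomembranes and of some plasma membranes. Its V1 sector in the cytosol hydrolyses ATP with subunits A and B and turns a central stalk, and its V0 sector in the membrane carries protons through subunit a and a ring of proteolipid subunits. The pump acidifies lysosomes, endosomes and secretory vesicles, and in insects it also energises ion transport across epithelia such as those of the Malpighian tubule and the midgut. Many subunits have several gene copies in the fly, of which 1 is usually known to be widely used, while the others are restricted to tissues such as the testis. In mammals, MITF and TFE factors are known to bind E-box sites at lysosomal and V-ATPase genes, and Mitf does so in the fly. CG3919 belongs to the MADF-BESS family of DNA-binding proteins.

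The genomic sequences at the summits that could be shown are given first, because the results turn on where the summit, the point of highest signal, lies relative to the transcription start site (TSS). Each is on the dm6 assembly, taken from the RefSeq genome of that assembly, and reads 5′ to 3′ on the strand of the V-ATPase gene. The 11 capital letters are centred on the summit, except at Vha68-2. The first is from Vha16-5 at chr2L:10737195-10737344 (minus strand) and the second from the weaker of the pair of Vha100-2 peaks at chr3R:18399276-18399425 (minus strand). Those of Vha13 at chr3R:19644387-19644536 (minus strand) and VhaM9.7-c at chr3L:4186866-4187015 (minus strand) follow.
Vha16-5: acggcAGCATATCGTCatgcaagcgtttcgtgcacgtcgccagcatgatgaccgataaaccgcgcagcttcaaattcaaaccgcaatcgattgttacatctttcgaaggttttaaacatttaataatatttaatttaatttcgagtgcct
Vha100-2: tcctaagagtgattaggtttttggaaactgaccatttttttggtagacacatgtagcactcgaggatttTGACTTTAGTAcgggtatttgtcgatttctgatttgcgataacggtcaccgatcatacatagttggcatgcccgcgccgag
Vha13: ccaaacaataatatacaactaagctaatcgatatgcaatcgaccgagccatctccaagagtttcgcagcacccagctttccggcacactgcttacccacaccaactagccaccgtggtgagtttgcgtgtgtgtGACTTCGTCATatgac
VhaM9.7-c: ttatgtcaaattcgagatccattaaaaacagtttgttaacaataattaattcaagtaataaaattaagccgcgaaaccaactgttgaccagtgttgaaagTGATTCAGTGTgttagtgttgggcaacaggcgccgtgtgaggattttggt
At Vha68-2, chr2L:12974107-12974256 (plus strand), the capitals mark AGTGTGACC, the reverse complement of the core promoter element GGTCACACT, which lay 20 bp from the summit of the weaker of its peaks.
Vha68-2: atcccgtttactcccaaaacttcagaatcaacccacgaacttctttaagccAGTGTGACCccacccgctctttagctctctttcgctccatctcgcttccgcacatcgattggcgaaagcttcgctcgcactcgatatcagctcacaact
The last sequence, of Vha68-1 at chr2L:13004137-13004286 (minus strand), is shown because its region was strong in 2 replicates and missing from the pooled list. Its capitals are centred on the summit of replicate 1.
Vha68-1: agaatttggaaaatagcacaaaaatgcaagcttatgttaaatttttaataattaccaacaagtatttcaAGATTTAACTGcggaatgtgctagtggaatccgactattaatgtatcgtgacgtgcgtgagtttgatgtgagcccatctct
None of the 5 sequences other than that of Vha68-2 held any of the 7 motifs searched, which are listed with their counts further on.

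Of the 33 V-ATPase genes, 9 had a reproducible summit no further than 500 bp from a TSS, which is 27.3% (95% Wilson interval 15.1 to 44.2%), against 3217 of all 13945 protein-coding genes, or 23.1% (22.4 to 23.8%). The share of V-ATPase genes was close to that of all genes, and the interval of the gene group includes it. The 9 genes were Vha100-2, Vha36-1, Vha16-5, Vha44, Vha55, Vha13, VhaM9.7-c, Vha16-1 and Vha68-2, from the strongest peak to the weakest. Their best peaks had a median rank of 4692 in the reproducible list, where rank 1 is the strongest by the authors' signal, against a median of 3705 over all genes with a peak. The spread over replicates was read from the strongest 9569 candidates of each. A summit of these lay at a TSS of 10, 8 and 10 V-ATPase genes in replicates 1, 2 and 3, against 21.8%, 25.3% and 24.6% of all genes. This came to 28.3 ± 3.5% of V-ATPase genes and 23.9 ± 1.82% of all genes (SD, n = 3 replicates each). In replicate 2 the share of V-ATPase genes, 24.2%, lay below that of all genes, and in replicates 1 and 3 it lay above.

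Principal copies of the subunits had a summit more often than other copies in the reproducible list and in each replicate. Principal copies were the single genes of a subunit or the copy known to be most widely used, which gave 14 genes and left 19. A summit lay at a TSS of 7 of the 14 principal copies (50%, Wilson interval 26.8 to 73.2%) and at a TSS of 2 of the 19 other copies (10.5%, interval 2.94 to 31.4%). The intervals overlap, and the all-gene share of 23.1% lies below the first and inside the second. All 3 replicates gave 7 principal copies each (50 ± 0%), and they gave 3, 1 and 3 of the other copies (12.3 ± 6.08%, SD, n = 3 replicates). The 7 principal copies were the same genes throughout, but in replicate 1 Vha16-1 counted through a region at its 5′ end that the reproducible list does not hold, its scored peak ranking 10844 there. The other copies were Vha16-5 in all replicates, with VhaM9.7-c and Vha68-1 in replicates 1 and 3, and the region at Vha68-1 is not in the reproducible list either. No test between the copies was made, since genes are not replicates of a condition and an exact sign-flip test over 3 replicates cannot go below 0.25. The files hold no expression, so the use of each copy in these animals was not measured.

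**Figure D1:**
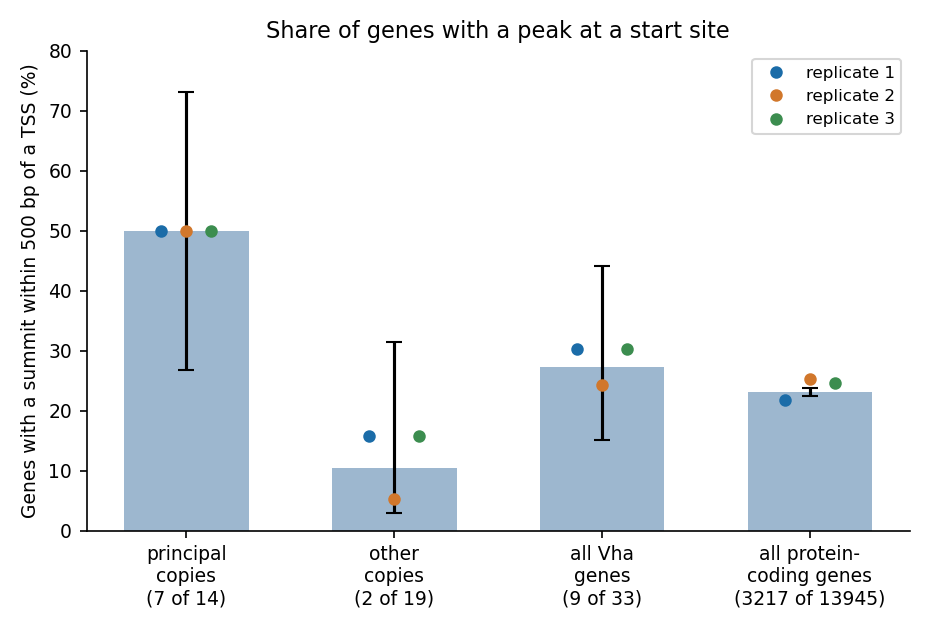
Share of genes (vertical axis, %) with a summit within 500 bp of a TSS for principal copies, other copies, all V-ATPase genes and all protein-coding genes. Bars give the reproducible peaks with 95% Wilson intervals, and points give the strongest 9569 candidates of each of the 3 replicates; the principal copies stand at 50% in every replicate, against 5.26 to 15.8% for the other copies.

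The number of start sites differed between these groups too. Of the principal copies, 9 have 1 annotated TSS and 5 have several, against 16 and 3 of the other copies. With several TSSs, 5 of 5 principal copies and 0 of 3 other copies had a summit at 1 of them, against 41.2% of the 3699 such protein-coding genes. With 1 TSS, 2 of 9 principal copies (22.2%) and 2 of 16 other copies (12.5%) had one, against 16.5% of the 10246 such protein-coding genes. The share of V-ATPase genes with 1 TSS that had a summit, 4 of 25 or 16%, was therefore close to that of all such genes. Gene length moved the same way: the median span was 2907 bp in principal copies and 1371 bp in other copies. It was 4068 bp in V-ATPase genes with a peak and 1730 bp in those without, against 4005 and 1894 bp over all protein-coding genes. Within principal copies it was 4286 bp with a peak and 2214 bp without. The order was reversed within other copies, at 786 bp in the 2 genes with a peak and 1470 bp in those without. The part of TSS number and length in the difference between copies was not tested.

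Among the V1 genes, 5 of 13 had a summit at a TSS (38.5%, interval 17.7 to 64.5%), against 4 of 20 V0 genes (20%, interval 8.07 to 41.6%). The replicates gave 43.6 ± 4.44% of V1 genes and 18.3 ± 2.89% of V0 genes (SD, n = 3 replicates each), against 23.9 ± 1.82% of all genes. Both intervals include the 23.1% of all protein-coding genes. Principal copies make up 8 of the 13 V1 genes and 6 of the 20 V0 genes, so the sectors differ in their copies too. Among principal copies 5 of 8 V1 genes and 2 of 6 V0 genes had a summit, and among other copies 0 of 5 V1 genes and 2 of 14 V0 genes. Of the 14 subunits, 8 had a gene with a peak: A, B, C, D and G in V1 and a, c and e in V0. Subunits E, F and H of V1 and c'', d and the AC45 accessory group of V0 had none. Of the 9 subunits with several genes, 5 had a gene with a peak. In 4 of these, exactly 1 copy had one, and it was the principal copy for A, a and D but not for e. Subunit c was the only one of the 9 with a peak at more than 1 copy, Vha16-1 and Vha16-5. Subunits hold from 1 to 5 genes, and those with more genes have more chances of a peak. No share for such groups among all genes was computed, so the counts of subunits only describe these genes.

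The catalytic subunit A is encoded by Vha68-1, Vha68-2 and Vha68-3, all on arm 2L. At Vha68-2, the principal copy, a pair of overlapping reproducible peaks lay across the start sites. Their ranks were 7819 (chr2L:12974199-12974634, summit 53 bp downstream of a TSS and in the 5′ UTR) and 8068 (chr2L:12973964-12974399, summit 140 bp upstream of a TSS). Both overlap the same replicate regions, which ranked 5712, 4789 and 8416 in replicates 1, 2 and 3, with a mean of 6306 ± 1885 (SD, n = 3). All 3 replicates thus held this gene among their strongest 9569, in the weaker part of the list. Further downstream, a candidate 192 bp from the TSS at 12975186 ranked 25659 in the pool.

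At Vha68-1 the lists differed. Replicate 1 had a region at rank 1368 (chr2L:13004138-13004327, summit 105 bp upstream of the TSS), replicate 3 had 1 at rank 3180 (summit 80 bp upstream), and replicate 2 had none. The authors' signal there was 2.5 times the median of the strongest 9569 of replicate 1 and 1.37 times that of replicate 3. Both values exceeded those of Vha68-2 in the same replicates, which were 0.861 and 0.618. The pooled list held no region within 500 bp of this TSS, and so neither did the reproducible list, where the nearest summit lay 29690 bp away. The cause was not tested. Vha68-3 had no candidate region within 500 bp in any list.

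Subunit B, the nucleotide-binding partner of A, has 1 gene, Vha55. Its peak at chr3R:12627599-12628034 ranked 4692 with the summit 12 bp downstream of a TSS, in the 5′ UTR. Its ranks in replicates 1, 2 and 3 were 4007, 6826 and 4034, with a mean of 4956 ± 1620 (SD, n = 3), and replicate 2 placed it lowest. A TSS of Snx3, a sorting nexin gene, lay 214 bp from the summit.

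Vha44 encodes subunit C, a stator part through which the joining of V1 and V0 is controlled. Its peak at chr2R:16336609-16336816 ranked 2725 with the summit 57 bp upstream of the TSS, in the 5′ UTR of Hmgs, whose own TSS lay 66 bp away. Hmgs encodes HMG-CoA synthase of the mevalonate pathway. The replicates ranked the region 2723, 3236 and 2595, with a mean of 2851 ± 339 (SD, n = 3), and the signal was 1.49 ± 0.148 times the median of the strongest 9569. All 3 replicates placed it in the stronger part of their lists.

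The central stalk subunit D is encoded by Vha36-1, Vha36-2 and Vha36-3. The peak at Vha36-1 (chr2R:15541252-15541515) ranked 1168, its summit being 46 bp upstream of the gene, and a TSS of CG8187 was nearer, at 26 bp. Counting each summit for its nearest TSS alone leaves Vha36-1 without a peak. The replicates ranked this peak 1028, 2226 and 905, with a mean of 1386 ± 730 (SD, n = 3), and the signal was 2.96, 1.69 and 2.97 times the median of the strongest 9569. At Vha36-3 only weak candidates were found, at rank 29738 in the pool and 22445 in replicate 1. Vha36-2 had none within 500 bp, and its nearest reproducible summit lay 2158 bp away at rank 5515.

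The peripheral stalk subunits G and E differed. The peak at Vha13 (chr3R:19644179-19644614), which encodes G, ranked 4816 with the summit 11 bp upstream of the TSS and no other gene's TSS within 500 bp. In the replicates it ranked 5283, 3945 and 4478, with a mean of 4569 ± 674 (SD, n = 3). Vha26, the E subunit gene, had no candidate within 500 bp in the pool or any replicate, and its nearest reproducible summit lay 9452 bp away. VhaSFD, the gene of the regulatory subunit H, had none either, and its nearest reproducible summit, at rank 212, lay 6918 bp away.

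Of the stalk subunit F genes, Vha14-1 stood outside the window, with a reproducible summit of rank 1087 at 873 bp downstream of its TSS and beyond the gene. No other unscored member had a reproducible summit within 1000 bp. Inside the 500 bp limit but beyond 250 bp lay the summit of Vha16-5 at 291 bp and the stronger peak of Vha100-2 at 299 bp. Vha14-2 had no candidate within 500 bp.

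Subunit a, which provides the proton half-channels and sorts the pump to its membranes, has 5 genes, and the strongest peak of any V-ATPase gene belonged to Vha100-2. That peak (chr3R:18396995-18397545) ranked 113 of 9569 and 144, 106 and 102 in replicates 1, 2 and 3, with a mean of 117 ± 23.2 (SD, n = 3). Its signal was 7.01, 6.85 and 7.12 times the median of the strongest 9569 in the replicates, a spread far smaller than its distance from the other members. Its summit lay 299 bp upstream of an internal TSS of Vha100-2, in an intron of that gene. A TSS of Vti1b, a SNARE gene of endosomal fusion, was nearer at 232 bp, and the summit fell in the 5′ UTR of Vti1b. The lists do not tell which of these start sites the region belongs to.

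A second Vha100-2 peak (chr3R:18399133-18399568) ranked 4462 with the summit 182 bp upstream of the 5′ end of the gene, in an intron of Vti1b. It ranked 4261, 4597 and 6840 in the replicates, with a mean of 5233 ± 1402 (SD, n = 3). Vha100-4, whose span begins downstream of Vha100-2 on the same strand, had the rank 113 summit as its nearest, at 7422 bp. Vha100-1, known in the fly as the neuronal copy, had its nearest reproducible summit at 6823 bp (rank 1960). The nearest to Vha100-3 and Vha100-5 lay at 4787 and 65894 bp. None of these 4 copies had a candidate within 500 bp in any list.

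The proteolipid ring is built mainly of subunit c, with 5 genes. Vha16-1, the principal copy, had a peak at chr2R:6632182-6632617 of rank 5905 with the summit 16 bp upstream of an internal TSS. The replicates ranked it 10844, 5402 and 5016, with a mean of 7087 ± 3259 (SD, n = 3), so that replicate 1 did not hold it among its strongest 9569. A pair of summits of rank 5440 and 5654 lay in its intron, 1688 and 1897 bp downstream of that TSS. At the gene's 5′ end (TSS at 6633090), each replicate held a region with a summit 128, 127 and 162 bp upstream, at ranks 2493, 4439 and 4017. These regions were stronger than the scored peak in all 3 replicates, and yet the pooled list held none there. The cause was not tested.

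Such losses were uncommon in the map. Of the strongest 9569 candidates, 250 in replicate 1 (2.61%), 410 in replicate 2 (4.28%) and 355 in replicate 3 (3.71%) overlapped no pooled region. Of the 6964 strong regions of replicate 1 that were matched among the strongest of replicates 2 and 3, as at the 5′ end of Vha16-1, 35 (0.503%) overlapped none.

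Vha16-5 had the strongest peak among the other copies (chr2L:10737197-10737464), at rank 1322. The replicates ranked it 928, 1937 and 1551, with a mean of 1472 ± 509 (SD, n = 3), and the signal was 2.4 ± 0.647 times the median of the strongest 9569. The summit lay 291 bp upstream of the TSS of Vha16-5 and 11 bp from a TSS of CG12299, and counting each summit for its nearest TSS alone leaves Vha16-5 without a peak. Vha16-2, Vha16-3 and Vha16-4 had no candidate within 500 bp in any list.

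The other V0 genes were mostly free of peaks, as were 10728 of all 13945 protein-coding genes. Of the small subunit e genes, VhaM9.7-c had a peak (chr3L:4186692-4187127) of rank 5677, its summit being 45 bp upstream of the gene and inside introns of CG18675 and Teh2. In replicates 1, 2 and 3 it ranked 4884, 13321 and 4110, with a mean of 7438 ± 5109 (SD, n = 3), so that replicate 2 did not hold it among its strongest 9569. VhaM9.7-b, the principal e copy, had no candidate, and its nearest reproducible summit lay 22936 bp away. VhaM9.7-d had none within 500 bp, and VhaM9.7-a had candidates at rank 17142 in the pool and 13427 and 15283 in replicates 1 and 2.

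Subunit c'' of the ring had weak candidates at VhaPPA1-1, at rank 16832 in the pool and 21855 and 10148 in replicates 2 and 3, and at VhaPPA1-2 at rank 28876 in replicate 3. The rotor cap subunit d had none at VhaAC39-1 and weak ones at VhaAC39-2, at rank 25226 in the pool and 19610 in replicate 3. The accessory gene VhaAC45 had a candidate of rank 14229 in replicate 1 only, and VhaAC45RP had none. VhaM8.9, another accessory subunit, is annotated as ATP6AP2 and so fell outside the name rule. It had been planned as a principal copy but is not counted among the 14. ATP6AP2 had no reproducible peak and no pooled candidate within 500 bp of a TSS.

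**Figure D2:**
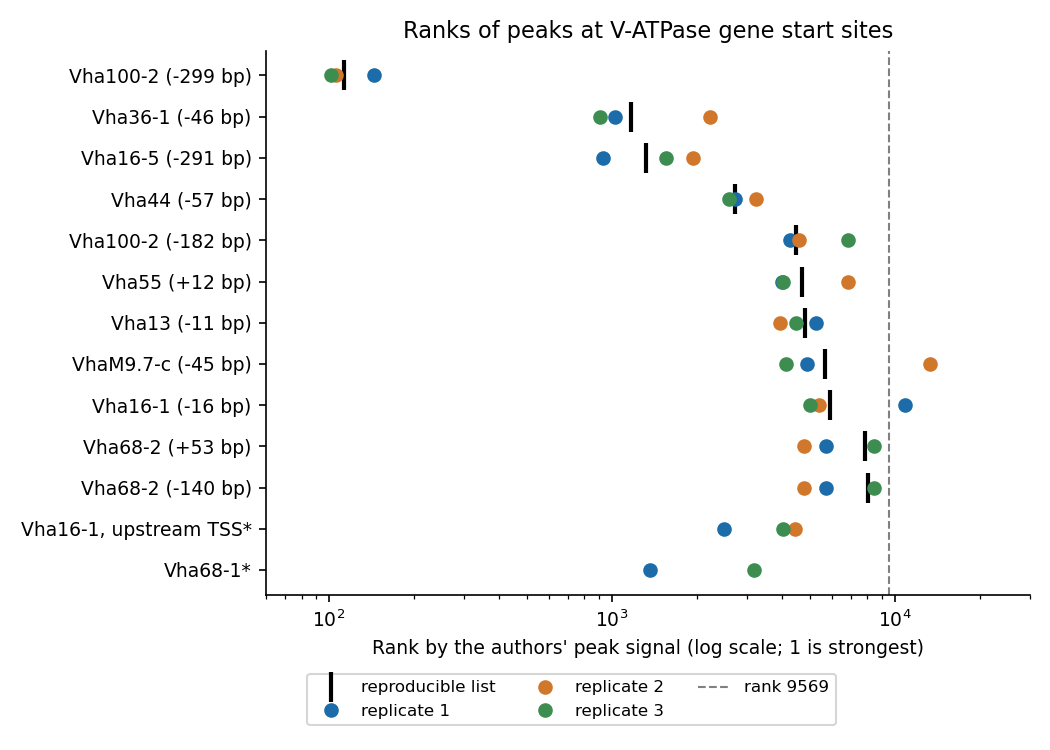
Rank by the authors' peak signal (horizontal axis, log scale, 1 is strongest) of each V-ATPase peak at a start site, with the summit position relative to the TSS in brackets. Vertical marks give the reproducible list and points the 3 replicates. Of the pair of Vha100-2 rows, the peak with its summit at 299 bp stands near rank 100 in every replicate. The other, at 182 bp, ranks 4261, 4597 and 6840. The last 2 rows, marked with an asterisk, are regions absent from the pooled list.

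Including weak candidates raised the count. In the pooled list 13 of 33 V-ATPase genes had a candidate summit within 500 bp of a TSS (39.4%, interval 24.7 to 56.3%), against 35.4% of all protein-coding genes. Of the principal copies 8 of 14 had one (57.1%), and of the other copies 5 of 19 (26.3%). The candidate lists hold background regions together with peaks, so a candidate is not a call. For 17 of 33 V-ATPase genes (51.5%) the pool and all 3 replicates held no candidate inside the 500 bp windows, against 7137 of 13945 protein-coding genes (51.2%). These were 5 of the principal copies (35.7%), Vha14-1, Vha26, VhaAC39-1, VhaM9.7-b and VhaSFD, and 12 of the other copies (63.2%).

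**Figure D3:**
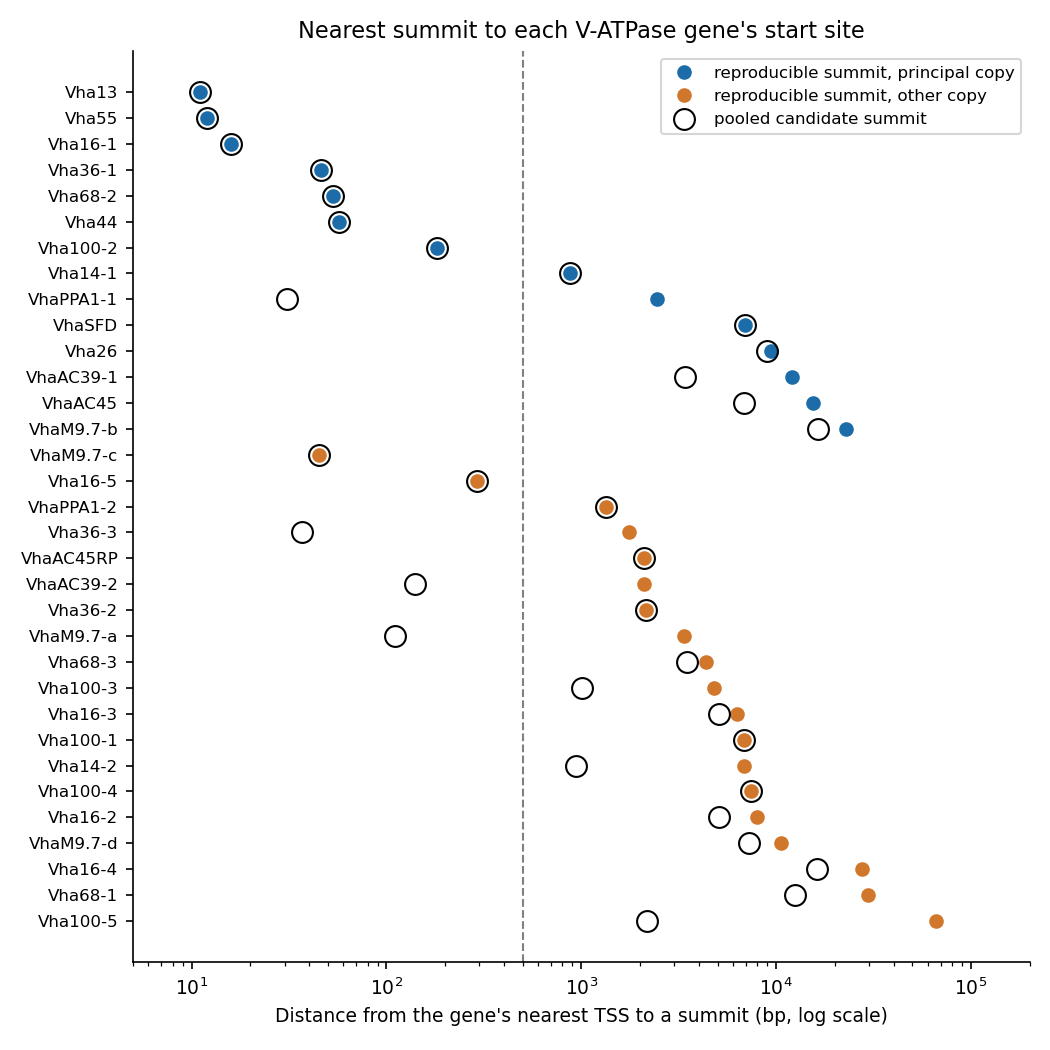
Distance from each of the 33 V-ATPase genes to the nearest summit (horizontal axis, bp from the nearest TSS of the gene, log scale). Filled points give reproducible summits of principal and other copies, open circles pooled candidates, and the dashed line the 500 bp limit; 7 principal and 2 other copies lie left of it with a filled point.

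Within the gene span, a reproducible summit lay in 4 of 33 V-ATPase genes (12.1%, interval 4.82 to 27.3%), against 16.6% of all protein-coding genes. These were Vha100-2, Vha16-1, Vha55 and Vha68-2, all principal copies (4 of 14, 28.6%), against 0 of 19 other copies, for which the Wilson interval reaches 16.8%. The longer spans of the principal copies, given above, move with this count.

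The best summit lay upstream of the TSS in 7 of 9 V-ATPase genes (77.8%), against 80.2% of all genes with a peak. The median position was 45 bp upstream in V-ATPase genes and 110 bp upstream over all genes. The summit was also within 500 bp of another gene's TSS in 5 of the 9 (55.6%, against 47%), namely Vha100-2, Vha36-1, Vha16-5, Vha44 and Vha55. In 6 of the 9 the V-ATPase gene had the nearest TSS (66.7%, against 78.1%), and in Vha100-2, Vha36-1 and Vha16-5, which held the 3 strongest peaks, the neighbour was nearer.

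Base composition around the summits was higher in G and C than at most promoter peaks. In windows of 201 bp around the 11 summits at V-ATPase start sites the median GC content was 48.3% (range 33.8 to 57.7%), against a median of 38.8% (quartiles 33.3 and 46.3%) over the 3403 reproducible summits within 500 bp of any TSS. Of the 11, 9 lay above that median, and the rank 113 summit of Vha100-2 (33.8%) and the summit of VhaM9.7-c (36.3%) lay below it. The highest value, 57.7%, belonged to Vha44. Among all promoter summits, the strongest tended to have lower GC content than those further down the list. The best V-ATPase peaks were weaker than those of all genes with a peak (median rank 4692 against 3705). The part of peak strength in the GC difference was not tested. The pair of Vha68-2 peaks overlap each other and rest on the same replicate regions, so their summits are not separate observations.

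**Figure D4:**
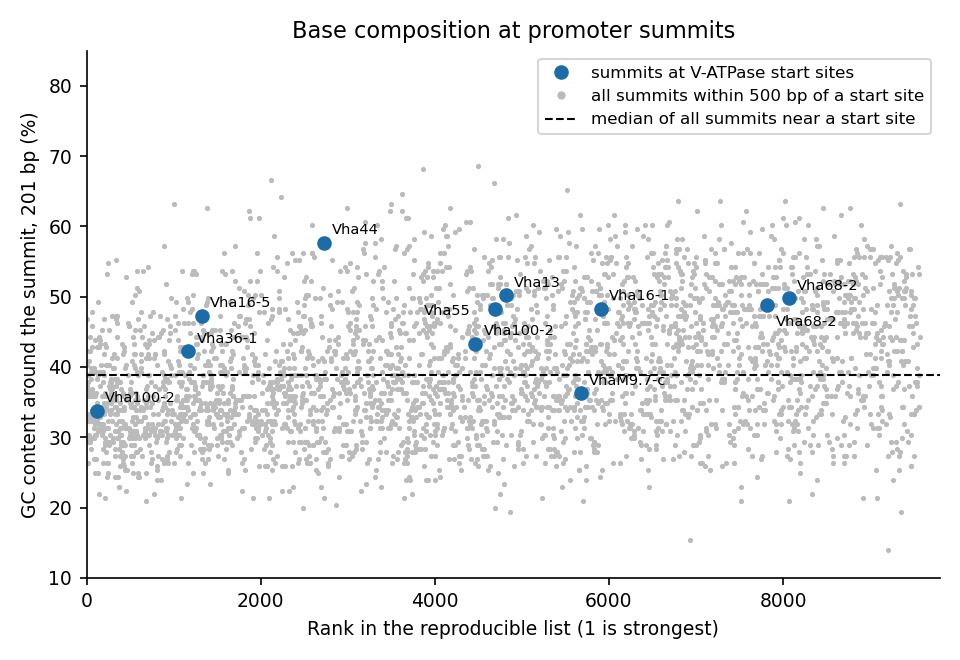
GC content of the 201 bp around each summit (vertical axis, %) against its rank in the reproducible list (horizontal axis, 1 is strongest), with 11 summits at V-ATPase start sites in blue and 3403 summits near any start site in grey. The dashed line is the median of the grey points, 38.8%, and 9 blue points lie above it.

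The E-box was looked for because of its known place at V-ATPase genes. Promoters were read from 250 bp before to 50 bp after the 5′ end of each gene, on both strands. The E-box was read as CACGTG and as the longer TCACGTGA, which contains it. The 5 other motifs searched were the DNA replication-related element, a core promoter element, the TATA box, a GAGA factor repeat and another form of the E-box, each spelled out where it is counted. CACGTG was present in 3 of 33 V-ATPase promoters (9.09%), those of Vha44, VhaAC45RP and VhaM9.7-d, against 4.2% of all promoters. TCACGTGA was present in 1 (3.03%), that of Vha44, with its first base 48 bp upstream of the TSS, against 24 of 13945 (0.172%). With every annotated TSS read, TCACGTGA was found at 2 V-ATPase genes, Vha44 and Vha68-2, against 28 of all genes (0.201%), and CACGTG at 5 (15.2%), with Vha55 and Vha68-2 added, against 5.3% of all genes. At Vha68-2 it lay 99 bp upstream of the internal TSS at 12975402, away from the reproducible peaks.

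At the summits themselves, CACGTG lay within 100 bp of 2 of 11 summits at V-ATPase start sites (18.2%), against 91 of 3403 promoter summits (2.67%). These were the summits of Vha44, 12 bp from the centre of the motif, and of Vha55, 46 bp away. TCACGTGA lay near the Vha44 summit and near 3 of all 3403 (0.0882%). The higher GC content of the V-ATPase summits, given above, stands beside these shares, and its part in them was not tested. The repeat GAGAG, known from GAGA factor sites, lay at 6 of the 11 (54.5%, against 31.9%). These were both summits of Vha100-2, both of Vha68-2, and those of Vha16-1 and Vha44, so some genes count more than once. The DNA replication-related element TATCGATA lay at 0 of the 11 (against 4.5%), and so did the TATA box, read as TATAAA (against 30.1%). The Wilson interval of each reaches 25.9%, above the first share and below the second. It treats the 11 summits as separate, which the pair at Vha68-2 is not. The part of GC content in the TATAAA count was not tested. In promoters of V-ATPase genes with a peak, TATAAA was present in 5 of 9 (55.6%), against 43.3% of all genes with a peak. The other E-box form, CAGCTG, lay at 2 of the 11 (18.2%, against 12.4%). The core promoter element GGTCACACT lay at 1 (9.09%, against 2.64%), the Vha68-2 summit.

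The other promoter motifs were close to their share in all promoters or rested on few genes. TATAAA was present in 17 of 33 V-ATPase promoters (51.5%, against 45.8%), GAGAG in 9 (27.3%, against 29.7%) and the other E-box form, CAGCTG, in 8 (24.2%, against 17.7%). The core promoter element GGTCACACT was present in 3 (9.09%, against 6.05%), in Vha100-1, Vha26 and Vha68-2, with its first base 2 bp upstream of the TSS in Vha100-1 and in Vha26. TATCGATA was present in 2 (6.06%, against 9.36%), in Vha55 and VhaSFD. A match is a run of letters and not a measured binding site.

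Genes that act with the pump in its assembly, its regulation and the lysosome were read from a list of 38 names, of which 37 matched the annotation. A summit lay at a TSS of 11 of them (29.7%, interval 17.5 to 45.8%), against 23.1% of all protein-coding genes, and the median rank of their best peaks was 5107. The strongest were Hexo2 and Lamtor3. Hexo2, which encodes a β-hexosaminidase, had a peak of rank 118, 231 bp upstream of its TSS, which ranked 100, 152 and 109 in the replicates (mean 120 ± 27.8, SD, n = 3). Lamtor3, a part of the Ragulator complex that links the pump to TOR signalling at the lysosome, had a peak of rank 132, 75 bp upstream and shared with fws, which ranked 111, 167 and 130 (mean 136 ± 28.5, SD, n = 3). Both stood in the replicates beside the rank 113 peak of Vha100-2.

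Of the lysosomal enzymes, the cathepsin genes CtsL1 and CtsB had peaks of rank 2734 and 3929, and Hexo1 had 1 of rank 2904. The CtsL1 peak was shared with Rpn13 and the CtsB peak with amrt, each with a TSS within 500 bp of the summit. The replicates ranked the region of CtsL1 4487, 2108 and 3027, that of Hexo1 3085, 3008 and 3364, and that of CtsB 3666, 4954 and 3541. Cln7, the fly counterpart of a human gene of neuronal ceroid lipofuscinosis, had a peak of rank 5107 that replicates 2 and 3 ranked 3836 and 6510 and replicate 1 did not list. Rheb, Lamtor5, Sap-r, cathD and Npc2a had weaker peaks, at ranks from 5733 to 9310. Mitf, the fly regulator of V-ATPase genes, had no reproducible peak and no pooled candidate within 500 bp of a TSS.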

How the data were processed

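The map was a ChIP-seq experiment on 3 biological replicates of CG3919-eGFP prepupae. Per the deposited provenance notes, the candidate regions of each replicate came from its alignments and 1 control, and the reproducible list from thresholding on the irreproducible discovery rate. No aligner, caller, version or threshold is given in the sources used here. The signal, the authors' deposited value for each peak on a scale also not given, served only for ranks within a list and for ratios to the median of the strongest 9569 of that list. Read depth is unknown, and Wilson intervals at 95% cover counting error only. Nothing in the labels says how separately the replicates were grown, so their spread may be partly technical.

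Genes and start sites came from Ensembl release 115 (BDGP6.54). A gene had a peak when any of its start sites had a summit at 500 bp or less. Replicate regions were matched to a peak by an overlap of at least 1 bp. Every gene found by the name rule is named, with replicate values for those with a peak, and of the pathway list the 6 strongest in full; CtsD and Tor matched through older names and Vma21 did not match. The division into principal and other copies came from background knowledge. Members and lists were chosen with earlier results of these data known, so no test of the group was made. The dm3 lists were not used and no coordinates were converted. The counting was tested on simulated data. Python 3.11.15, numpy 2.4.6, pandas 2.3.3, scipy 1.17.1 and matplotlib 3.10.9 were used.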

Additional observations from a re-analysis of the deposited data

How the results depend on the processing

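Of 45 recomputed values, 33 stayed within 1.5 times the reported one. This tally overstates stability, since some of the 33 were not separate checks. The reproducible peaks at V-ATPase genes held the same ranks in the pooled list. Taking as many of the strongest pooled candidates as there were reproducible peaks thus returned the same counts. The limit is also wide: 13 V-ATPase genes with all pooled candidates, in place of 9, fell within it. With the stronger 4784 reproducible peaks alone, 5 V-ATPase genes had a summit at a TSS, against 14.4% of all genes (Vha13, Vha16-1, Vha68-2 and VhaM9.7-c were lost), 4 of them principal copies and 1 another copy, and 2 genes had a summit in the span, against 11% of all genes. With all pooled candidates 9 genes had 1 in the span, against 26.6% of all genes, and 5 other copies had 1 at a TSS, against 35.4%. The count of other copies, 2, was 1 with a window of 250 bp or with each summit given to its nearest TSS alone (Vha16-5 lost in both), where all genes stood at 18.5% and 18.6%. Giving each summit to its nearest TSS also took Vha36-1 from the principal copies. This left 6 of 14 principal copies and 7 of 33 V-ATPase genes. In the span it left 3 genes, Vha100-2 being lost, against 13.9% of all genes. CACGTG was found at 5 genes, in place of 3, with every TSS read, against 5.3% of all genes.

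Each replicate was left out in turn, keeping only peaks matched among the strongest 9569 of both remaining replicates, which cannot raise a count. This gave 7 to 8 V-ATPase genes with a summit at a TSS, against 17.8 to 19.6% of all genes. Of these, 6 to 7 were principal copies and 1 to 2 other copies. A summit in the span remained in 4 V-ATPase genes, against 13.9 to 14.7% of all genes. VhaM9.7-c was lost without replicate 1 or 3 and Vha16-1 without replicate 2 or 3. Both still had a matching region, at the weaker ranks of 13321 in replicate 2 and 10844 in replicate 1. Requiring the strongest 9569 candidates of every replicate, an alternative chosen after seeing the data, gave 8 V-ATPase genes and 1 other copy, against 17.3% of all genes, VhaM9.7-c being lost. Vha16-1 stayed in that count through the region at its 5′ end, since replicate 1 ranked its scored peak 10844. No paired analysis was possible because there was 1 group of samples. Depth, and hence what a missing region means, is unknown.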
